A study of Bos taurus with 4 samples.

Results

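The genes of the mitogen-activated protein kinase (MAPK) cascade were described in sperm RNA of high- and low-fertile buffalo bulls. Members were the sample probes of the array whose gene symbol named a MAPK, an upstream kinase (MAP2K, MAP3K or MAP4K), a MAPK-activated kinase (MAPKAPK), a dual-specificity phosphatase (DUSP) or a MAPK binding protein. The symbols gave 67 genes with 155 probes, of 32429 gene names and 51282 probes in all. By tier there were 4 MAP4K, 14 MAP3K, 7 MAP2K, 13 MAPK, 3 MAPKAPK and 22 DUSP genes, together with 4 binding proteins that are not kinases (MAPK8IP1 to MAPK8IP3 among them).

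RNA of Percoll-selected sperm of Murrah buffalo (Bubalus bubalis) breeding bulls, grouped by field conception rate, was hybridized to 4 single-colour arrays. There were 2 high-fertile and 2 low-fertile pools, each made from the RNA of 2 bulls. Neither the files nor the study's methods say which bulls went into which pool, so the pool was the replicate and p-values measure the spread between pools only. The probes were designed for cattle (Bos taurus), and the part of mismatch between the species in the signals was not tested. All arrays shared a slide, whose rows each held the arrays of a single group, and slide row and group cannot be told apart.

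The cascade is a relay in which a MAP4K activates a MAP3K, which phosphorylates a MAP2K, which in turn phosphorylates a MAPK on the threonine and tyrosine of its activation loop. ERK kinases (such as MAPK3) answer mainly to growth factors, whereas JNK (MAPK8 to MAPK10) and p38 kinases (MAPK11 to MAPK14) answer mainly to stress and cytokines. DUSPs remove both phosphates and switch the kinase off. In sperm the ERK and p38 kinases are known for their part in motility, hyperactivation and the acrosome reaction. Ejaculated sperm are almost silent in transcription, and most of their RNA was made during spermatogenesis.

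In several genes below, probes at different places of a transcript gave different values, so the probes of those genes are shown first. Each line gives the gene, the first base of the 60-base probe in its transcript, the position in Btau_3.1 as the files give it with its strand, and the bases from the 5′ end. Probes that start late in the transcript are given by their first 30 bases, and capitals mark the bases that overlapping probes of 1 gene share.
MAPK8 at base 1362, chr28:42689741-42689800, plus strand: tcggggggtgggagggatgggcagttgttt
MAPK8 at base 5622, chr28:42694001-42694060, plus strand: attcatgccctagtcattaaacatgcacca
MAPK10 at base 931, chr6:105066234-105071161, minus strand: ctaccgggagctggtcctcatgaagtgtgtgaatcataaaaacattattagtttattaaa
MAPK10 at base 2694, chr6:104934974-104935033, minus strand: tcttggACCCTTGAAGATGTAGCTTCCAAA
MAPK10 at base 2700, chr6:104934972-104935027, minus strand: ACCCTTGAAGATGTAGCTTCCAAAtctgaa
MAP3K13 at base 2999, chr1:83584371-83584430, minus strand: agtgttctgatgccacagtcAGGACCAATA
MAP3K13 at base 3019, chr1:83584351-83584410, minus strand: AGGACCAATAaacactacagctctgctacc
DUSP6 at base 1184, chr5:21814025-21814084, minus strand: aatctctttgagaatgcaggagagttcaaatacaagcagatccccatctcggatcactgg
DUSP6 at base 1992, chr5:21812166-21812225, minus strand: tcaattttgcatatagaggagccaaagaga
MAP2K6 at base 752, chr19:63053757-63057234, minus strand: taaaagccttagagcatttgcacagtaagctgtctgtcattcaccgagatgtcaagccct
MAP2K6 at base 1256, chr19:63037728-63037748, minus strand: ttcttggagactaaaaacaatggactccat

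The MAPK10 probe at base 931 and the MAP2K6 probe at base 752 covered more genome than their 60 bases, which places them across an exon junction. The later MAPK10 probes shared 54 bases and those of MAP3K13 shared 40 bases, so each pair read almost the same stretch and is not a pair of independent measurements. The file gave only 21 bases of genome for the MAP2K6 probe at base 1256.

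Of the 155 member probes, 71 and 70 were well above background, by the scanner software's own test, on the arrays of high-fertile pools 1 and 2. On those of low-fertile pools 1 and 2 the numbers were 85 and 45. As shares these were 45.8%, 45.2%, 54.8% and 29% of the member probes, beside 45.4%, 45.3%, 50% and 25.4% of all sample probes. The array of low-fertile pool 2 thus detected fewest probes, in the members as in the whole array. A probe entered the test if both arrays of either group, or of both, showed it well above background, which 66 member probes of 44 genes did. Of these, 40 passed in both groups, 22 only through the high-fertile pair and 4 only through the low-fertile pair. The 22 include probes that missed only on the array of low-fertile pool 2 and hardly differed, such as the DUSP6 probe at base 1184, but a probe that passed only through the pair where it is bright was admitted for being bright there. Counts are therefore also given over genes well above background on all 4 arrays.

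No probe of 15 genes was well above background on any array. Among these were MAP2K1, the MEK1 kinase of the ERK branch, MAP2K5, which activates ERK5, MAP3K5, MAP3K8, MAP3K15, MAPK6, MAPKAPK5, DUSP4, DUSP8, DUSP10, DUSP11, DUSP12, DUSP18 and DUSP22. The 3 MAP2K1 probes read between 3.35 and 16.2 on the scanner's processed signal scale, which is linear and background-subtracted. All readings in the text are on this scale, before the arrays were normalized, while fold changes, tests and statements on whether groups overlap rest on normalized log2 values. The shift between them is small: the 75th percentile of the array of low-fertile pool 2 was 32.7 and those of the others lay between 36.7 and 37.1. No level can be given for these genes beyond that they were not well above background.

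Low-fertile pools were compared with high-fertile pools in limma over the 21033 probes that entered the test, with Benjamini-Hochberg adjustment over all of them. Each gene was represented by its brightest probe, and a call was an adjusted p below 0.05. Of the 44 member genes, 7 were higher in the low-fertile pools, 7 were lower and 30 were not called. This balance rests on the scaling, since shifting the arrays by the spike-in probes gave 1 higher and 16 lower, with the median log2 fold change of all tested probes itself at -0.38. The shares were 15.9% in both directions, and over all genes tested 9.60% were called higher and 16.3% lower. The share lower was therefore near the background. Over the 32 member genes well above background on all 4 arrays, 6 (18.8%) were called higher and 5 (15.6%) lower, beside 13.2% and 9.32% of all such genes. Counted by probe, 9 were called higher and 13 lower, beside 9.22% and 17.6% of all probes, and the pools were apart in 21 higher and 25 lower probes, beside 33.6% and 35.5%.

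The median log2 fold change, low over high, was 0.07 over the 44 member genes and 0.01 over all genes tested. The pools of the groups did not overlap in 15 genes that were higher and 15 that were lower, and overlapped in 14. Over all genes 35.0% were apart and higher and 34.3% apart and lower, so the separation of the pools in the members was near the background too. The calls depended on the pools: 3 of the 14 called genes stayed past the threshold with each pool left out in turn, among them DUSP7 and DUSP6, the latter admitted through the high-fertile pair only. MAP3K7, DUSP26 and MAPK8IP2 passed it in no such fit. The shares over all genes are given for the fit above only, and none stands beside the counts of spike-in scaling or of fits with a pool left out.

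**Figure D1:**
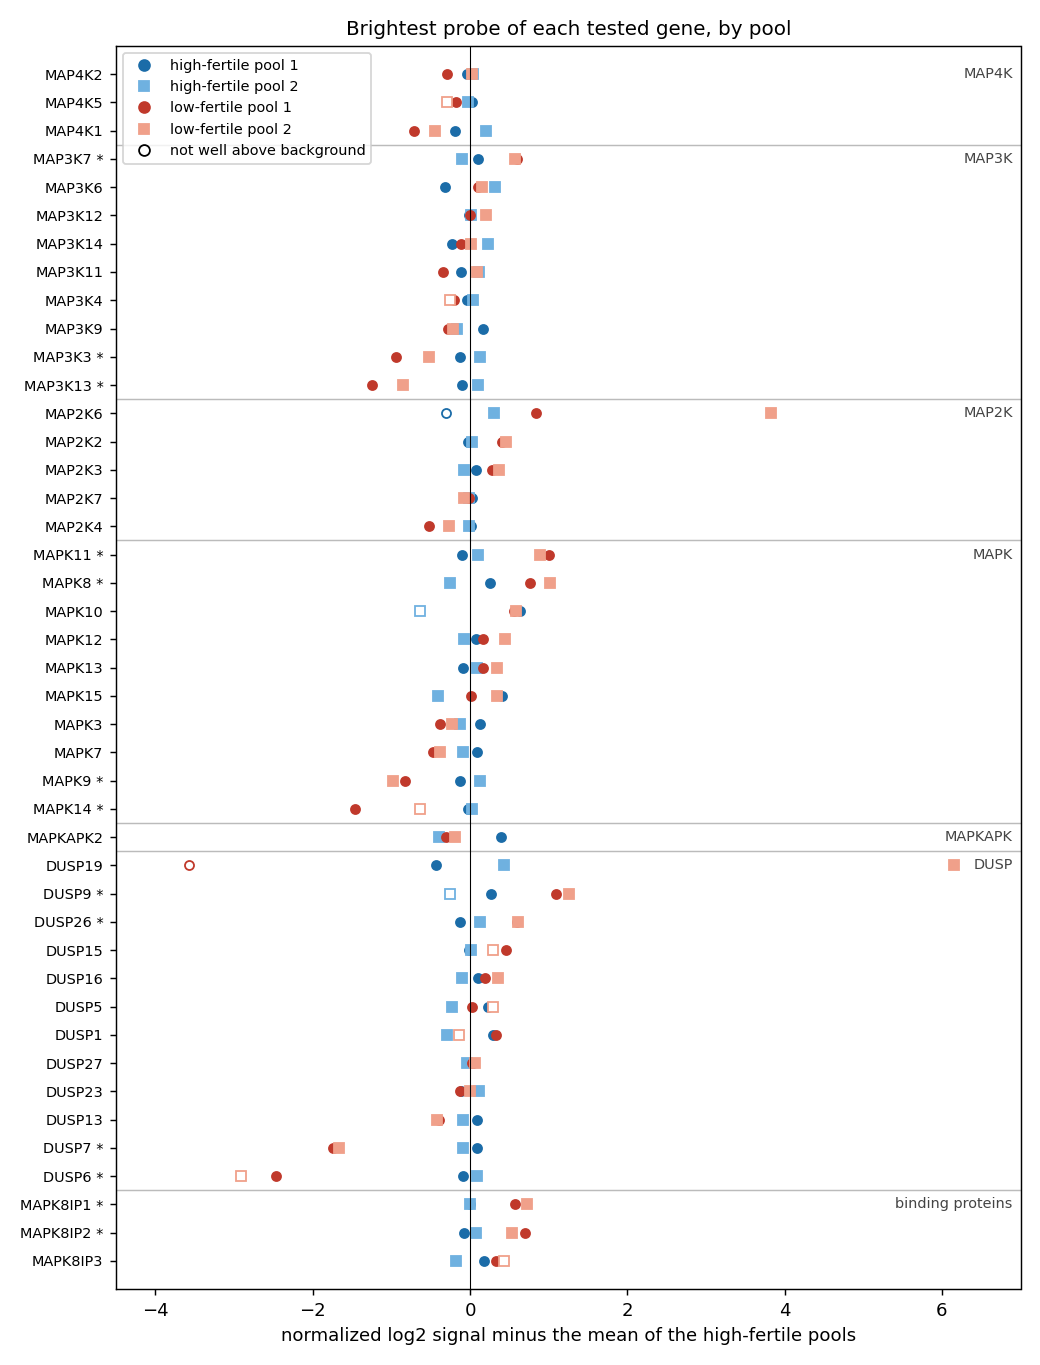
Normalized log2 signal of the brightest probe of 43 of the 44 tested genes, 1 point per pool, minus the mean of the high-fertile pools, with open points where the probe was not well above background and an asterisk on the 13 genes with an adjusted p below 0.05 (limma). The points of DUSP6 and DUSP7 in the low-fertile pools lie far to the left, and those of MAP2K6 and DUSP19 in low-fertile pool 2 lie far to the right of the other pools.

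The calls were then counted by tier, and the share over all genes tested (9.60% higher and 16.3% lower) stands beside all these counts. Of 3 tested MAP4K genes none was called, and their median log2 fold change was -0.24. Of 9 MAP3K genes 1 was higher and 2 were lower (median -0.13). None of 5 MAP2K genes was called (median 0.32), nor was the only tested MAPKAPK gene, MAPKAPK2. Of 11 MAPK genes 2 were higher and 3 were lower (median 0.17), and of 12 DUSP genes 2 were higher and 2 were lower (median 0.13). Of 3 binding proteins 2 were higher (median 0.62). Read by branch, with MAP2K4 counted under JNK only, 1 of 5 JNK genes was higher and 1 lower, and 1 of 6 p38 genes was higher and 1 lower. The only tested gene of the ERK5 branch, MAPK7, was not called. Counted over its 9 tested probes instead, the JNK branch had 1 higher and 5 lower calls (median -0.81, against -0.05 by brightest probe), 4 of the 5 on probes admitted through the high-fertile pair only. No tier or branch with more than 1 call among its kinases or phosphatases moved in 1 direction only. With a pool left out the MAP3K median lay between -0.24 and 0.0061, turning direction without low-fertile pool 1. The MAPK median turned to -0.23 without high-fertile pool 2, and to -0.42 when a gene was read as the median of its tested probes. The tier medians also shifted with the scaling: with the spike-in probes as reference the median of all probes itself was -0.38, and those of the tiers were -0.61 for MAP4K, -0.50 for MAP3K, -0.05 for MAP2K, -0.20 for MAPK and -0.24 for DUSP.

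**Figure D2:**
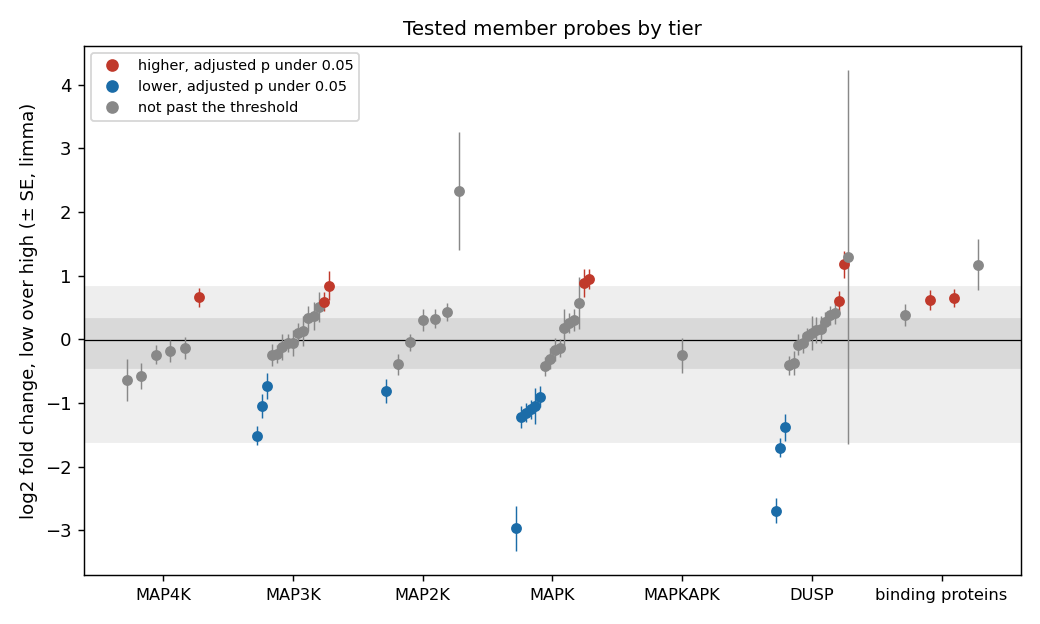
Log2 fold change, low-fertile over high-fertile, of the 66 tested member probes by tier, with the SE from limma as bars, and bands for the middle 50% and 90% of all tested probes. Every kinase tier above the MAPKs lies mostly within the wider band, and the points furthest below it are a MAPK8 and a DUSP6 probe.

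At the top of the cascade, MAP4K1, a kinase of blood cells that feeds the JNK branch, read 182 and 242 in the high-fertile pools against 129 and 136 in the low-fertile pools. Both low-fertile pools were below both high-fertile pools, but the difference (log2 fold change -0.58, SE 0.20) did not pass (limma, adjusted p = 0.0845). MAP4K2, another kinase upstream of JNK, had 3 tested probes that differed among themselves. Its brightest probe, at base 410, read 68.3, 72.8, 57.5 and 63.7 in high-fertile pools 1 and 2 and low-fertile pools 1 and 2, with a log2 fold change of -0.13 that was not called. The probe at base 1870 read 27.2, 27.3, 40.5 and 40.7, with both low-fertile pools higher (0.66, SE 0.15, limma, adjusted p = 0.0282), and lost this call in 6 other settings. The third, at base 2740, read 39.5, 47.2, 39.1 and 17.6 and was not called.

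Among the MAP3Ks, MAP3K13 (the leucine zipper-bearing kinase LZK, an activator of JNK) was lower in the low-fertile pools. The probe at base 3019 read 59.1 and 68.6 in the high-fertile pools against 26.9 and 31.3 in the low-fertile pools, 2.07-fold lower (log2 fold change -1.05, SE 0.19, limma, adjusted p = 0.0150). The overlapping probe at base 2999 read 57.1, 64.2, 21.2 and 18.8 in the same order (-1.51, SE 0.15, adjusted p = 0.00305 in limma). Both probes had all low-fertile values under all high-fertile values. Without high-fertile pool 2 the adjusted p of the brighter probe was 0.0775, and its partner had entered the test through the high-fertile pair only.

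MAP3K3 (MEKK3), which acts upstream of ERK5 and p38, read 72.6 and 87.7 in the high-fertile pools against 41.8 and 49.2 in the low-fertile pools. The groups were apart, by a log2 fold change of -0.73 (SE 0.20, limma, adjusted p = 0.0488), which lies just past the threshold and passed in only 1 of the 4 fits with a pool left out. The other tested MAP3K3 probe, 300 bases further upstream at base 1398, read 36.1, 37.2, 36.2 and 30.4, a log2 fold change of -0.06. MAP3K7 (TAK1), the kinase that relays TGF-beta and cytokine signals to JNK and p38, went the other way. It read 77.7 and 68.3 in the high-fertile pools against 111 and 96.1 in the low-fertile pools (0.59, SE 0.15, limma, adjusted p = 0.0400). The pools were apart, and the adjusted p lay between 0.0889 and 0.183 with a pool left out. A second MAP3K12 probe, at base 3202, was also called higher (0.84, adjusted p = 0.0461), but was not well above background in high-fertile pool 2, entered the test through the low-fertile pair only and lost the call in 9 other settings, whereas the brightest probe of this JNK activator read 44.6, 46.2, 45.6 and 46.4 (0.11). The other tested MAP3K genes, MAP3K4, MAP3K6, MAP3K9, MAP3K11 and MAP3K14, had log2 fold changes between -0.25 and 0.13 and were not called.

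The MAP2Ks gave no call on their brightest probes. MAP2K2 (MEK2), the ERK kinase, read 41.8 and 43.8 in the high-fertile pools against 56.8 and 52.1 in the low-fertile pools. The pools were apart (log2 fold change 0.43, SE 0.14, limma, adjusted p = 0.0743). MAP2K3, a p38 kinase, read 124, 112, 143 and 134, also with the low-fertile pools above (0.32, SE 0.15, adjusted p = 0.162), and its direction turned to -0.05 with spike-in scaling. MAP2K7, which phosphorylates JNK only, read 57.8, 57.0, 56.8 and 48.1, with overlapping groups (-0.05, SE 0.14, adjusted p = 0.817 in limma).

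MAP2K4, which serves both JNK and p38, read 62.0 and 61.1 in the high-fertile pools against 43.1 and 45.2 in the low-fertile pools on its brightest probe, at base 3685. The groups were apart but not called (-0.39, SE 0.16, limma, adjusted p = 0.120). Its probe at base 824, dimmer at 28.4, 25.9, 17.8 and 11.99, was lower (-0.81, SE 0.19, limma, adjusted p = 0.0296). That call was lost when any pool other than low-fertile pool 1 was left out, with adjusted p between 0.0841 and 0.124. The probe was not well above background in low-fertile pool 2 and entered the test through the high-fertile pair only.

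MAP2K6, the other kinase dedicated to p38, had 4 probes, of which 1 entered the test, through the low-fertile pair only. That probe, at base 1256, read 17.7 and 27.3 in the high-fertile pools against 39.6 and 275 in the low-fertile pools. Both low-fertile values lay above both high-fertile values, but low-fertile pool 2 stood 6.95-fold above low-fertile pool 1. With a log2 fold change of 2.33 and an SE of 0.93, the probe was not called by limma (adjusted p = 0.118). The difference fell to 0.84 without low-fertile pool 2 (adjusted p = 0.120) and rose to 3.82 without low-fertile pool 1 (adjusted p = 0.00457, limma), so the size of the difference rests on 1 array. With normexp background correction, run with an offset of 50, it was 1.03, and an offset of that size shrinks log2 differences between dim readings.

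The other MAP2K6 probes were dim and did not enter the test. The probe at base 752 read 15.5, 21.3, 24.4 and 21.3 in high-fertile pools 1 and 2 and low-fertile pools 1 and 2. The probe at base 1410, which starts 154 bases after the bright one, read 13.4, 15.0, 14.4 and 18.0, and the probe at base 367 read 3.93, 4.43, 3.77 and 7.55. The probes at bases 367 and 1410 were not well above background on any array, so the order of the pools in them was not read. The probe at base 752 was well above background in high-fertile pool 2 and low-fertile pool 1 only, so the order of the pools was not read in it either.

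The spots next to the bright MAP2K6 spot were then read. A spot was called raised when it lay more than 2 log2 units above the mean of the same spot on the other 3 arrays. On the array of low-fertile pool 2 the MAP2K6 spot itself was 3.54 above its mean elsewhere, and 2 of its 6 nearest spots were raised. These carry probes of RNF125, a ubiquitin ligase, 6.52 above, and of KRT85, a hair keratin, 3.37 above. The other 4 lay between -0.90 and 1.71. On the other arrays 0 of the 6 neighbours were raised, also when these 3 arrays were set only against each other and low-fertile pool 2 was kept out of the mean (a reference chosen after seeing the data), and around the other 3 MAP2K6 spots 0 of 6 were raised on every array. Leaving out spots that lay in such bright patches gave MAP2K6 the same log2 fold change as leaving out low-fertile pool 2, 0.84 (adjusted p = 0.0885, limma), since the probe has a single spot. The part of the neighbourhood in the MAP2K6 signal was not tested further.

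DUSP19, a phosphatase of the JNK pathway, showed the same pattern more strongly and is described because its value stood out. Its brightest probe read 38.4, 70.9, 4.40 and 3287 in high-fertile pools 1 and 2 and low-fertile pools 1 and 2, so the low-fertile pools were the lowest and the highest of the 4, with both high-fertile pools between them. The log2 fold change was 1.29 with an SE of 2.94 (limma, adjusted p = 0.766). Around it 4 of the 6 nearest spots were raised on that pool's array, by 5.50 to 8.91 log2 units, and the other 2 were blank control corners. On the other arrays 0 of 6 were raised, also when set only against each other. When low-fertile pool 2 was left out, DUSP19 turned to -3.57 log2 units, with low-fertile pool 1 alone set against the high-fertile pair. At 4.40 in low-fertile pool 1 the probe was not well above background, so that difference has no exact size. The probe had entered the test through the high-fertile pair only. Of the 162 member spots, 3 lay on a bright patch on the array of low-fertile pool 2 (MAP2K6, DUSP19 and the dimmer MAPK8IP1 probe) and 0 on the other 3 arrays.

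**Figure D3:**
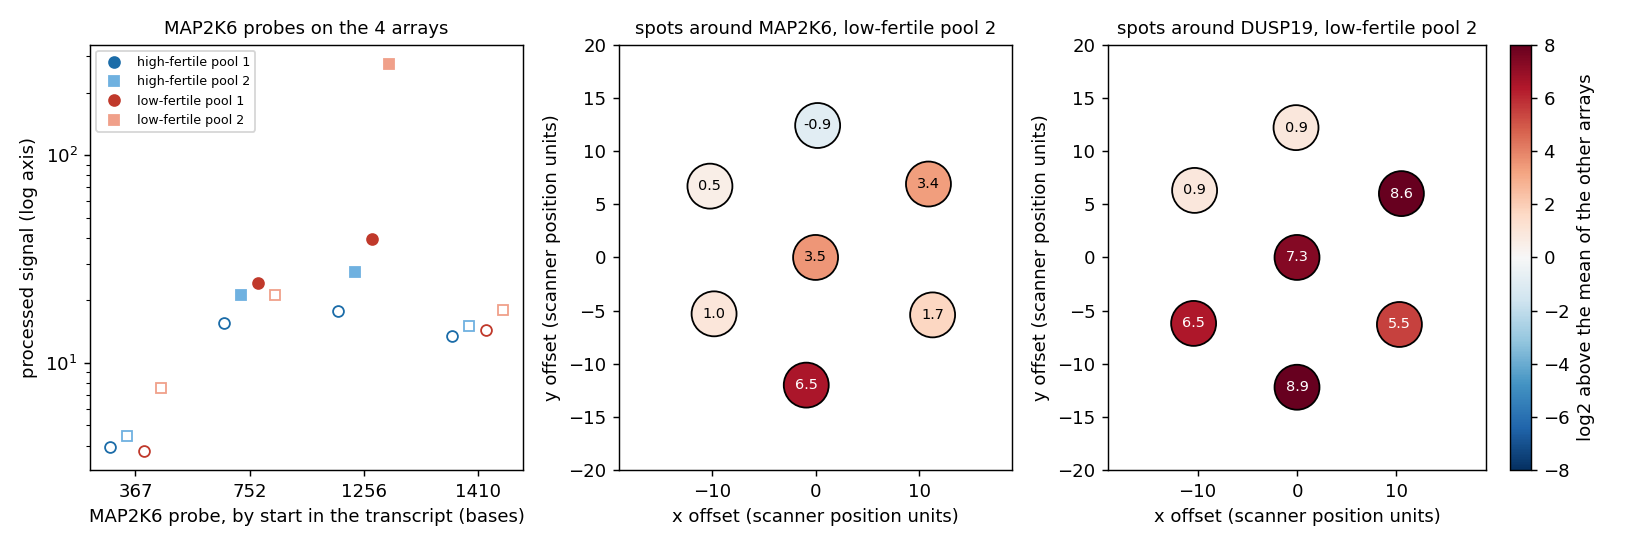
Left, processed signal (log axis) of the 4 MAP2K6 probes in each pool, with open points where the probe was not well above background. Centre and right, the MAP2K6 and DUSP19 spots (at 0, 0) and their 6 nearest spots on the array of low-fertile pool 2, coloured and labelled by log2 signal above the mean of the same spot on the other 3 arrays, where 2 neighbours of MAP2K6 and 4 of DUSP19 exceed 2.

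Among the MAPKs themselves, MAPK3 (ERK1) was bright, at 956 and 813 in the high-fertile pools against 681 and 668 in the low-fertile pools. The low-fertile values were below the high-fertile values, by less than the test resolved (-0.30, SE 0.16, limma, adjusted p = 0.224). MAPK7 (ERK5) read 108, 96.6, 74.1 and 69.5, again with both low-fertile pools lower and no call (-0.42, SE 0.15, limma, adjusted p = 0.0923). Its other probe, at base 1791, read 5.62, 9.45, 17.7 and 20.2, with the low-fertile readings above. That probe was well above background in low-fertile pool 1 only and did not enter the test.

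Of the JNKs, MAPK9 (JNK2) was lower in the low-fertile pools. It read 119 and 144 in the high-fertile pools against 73.6 and 58.8 in the low-fertile pools, and the groups were apart (log2 fold change -0.90, SE 0.16, limma, adjusted p = 0.0146). The call was lost without high-fertile pool 2 (adjusted p = 0.0786) and without low-fertile pool 2 (adjusted p = 0.0518).

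MAPK8 (JNK1) was the only member with probes called in opposite directions. The brightest, at base 1362, read 59.2 and 42.4 in the high-fertile pools against 85.1 and 89.8 in the low-fertile pools (log2 fold change 0.89, SE 0.22, limma, adjusted p = 0.0354). The probe at base 5622 read 33.3 and 38.3 in the high-fertile pools, whereas in the low-fertile pools, at 3.16 and 5.85, it was not well above background. Low-fertile values were thus all above high-fertile values on the first and all below them on the second. At base 5622 the fitted log2 fold change was -2.97 (limma, adjusted p = 0.00466). With the dimmest probe well above background as the floor of each low-fertile array, the high-fertile pools were 4.99-fold higher. That is not a lower bound, since brighter probes also missed the mark there. A DUSP4 probe, for example, read 20.1 and 31.0 in the low-fertile pools and was not well above background. The fold at base 5622 therefore has no exact size. The probe at base 5622 entered the test only through the pair in which it was bright. Of the fits with a pool left out, the rise at base 1362 passed only in that without high-fertile pool 1, and it was lost with spike-in scaling (0.52, adjusted p = 0.12), where the probes were no longer called in opposite directions. When MAPK8 was read as the median of its tested probes, its log2 fold change was -1.04.

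MAPK10 (JNK3), the JNK best known from brain and testis, also differed between its probes. Its probe at base 931 read 60.5, 25.2, 57.8 and 51.9, with high-fertile pool 1 the highest and high-fertile pool 2 the lowest (0.57, SE 0.41, limma, adjusted p = 0.335). Its direction turned to -0.07 without high-fertile pool 2, whereas without high-fertile pool 1 it was called higher (1.21, limma, adjusted p = 0.0274). It had entered the test through the low-fertile pair only. At base 2694 the readings were 72.2 and 68.5 in the high-fertile pools against 34.0 and 26.1 in the low-fertile pools (-1.15, SE 0.15, limma, adjusted p = 0.00609). The overlapping probe at base 2700 gave 66.3, 58.9, 28.4 and 26.5 (-1.10, SE 0.15, adjusted p = 0.00664 in limma). On both of these the groups were apart, and both entered the test through the high-fertile pair only, since low-fertile pool 2 did not show them well above background.

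The p38 kinases gave a call in each direction. MAPK11 (p38 beta) read 24.5 and 28.3 in the high-fertile pools against 53.0 and 43.0 in the low-fertile pools, 1.92-fold higher with the groups apart (0.94, SE 0.15, limma, adjusted p = 0.0106). Without high-fertile pool 1 its adjusted p was 0.0607. MAPK14 (p38 alpha), the most widely expressed p38, read 22.4 and 23.4 in the high-fertile pools against 8.36 and 13.0 in the low-fertile pools (-1.05, SE 0.28, limma, adjusted p = 0.0463). It was close to background in the low-fertile pools, not well above it on the array of low-fertile pool 2 and so admitted through the high-fertile pair only, and passed in only 1 of the 4 fits with a pool left out, that without low-fertile pool 2. With normexp background correction its log2 fold change was -0.11 (adjusted p = 0.312), in the deposited value table it was -0.72 (adjusted p = 0.0544), and with quantile normalization it was -0.93 (adjusted p = 0.115), so the call was lost in 9 of the other settings in all. Its other 3 probes, further upstream, were not well above background on any array. MAPKAPK2, the kinase that p38 activates, read 1697 and 1001 in the high-fertile pools against 1056 and 1012 in the low-fertile pools, with overlapping groups (-0.25, SE 0.27, limma, adjusted p = 0.531). MAPK12 and MAPK13 (p38 gamma and delta) were slightly higher in both low-fertile pools, with log2 fold changes of 0.31 and 0.25 that were not called. Each turned direction in 1 other setting.

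**Figure D4:**
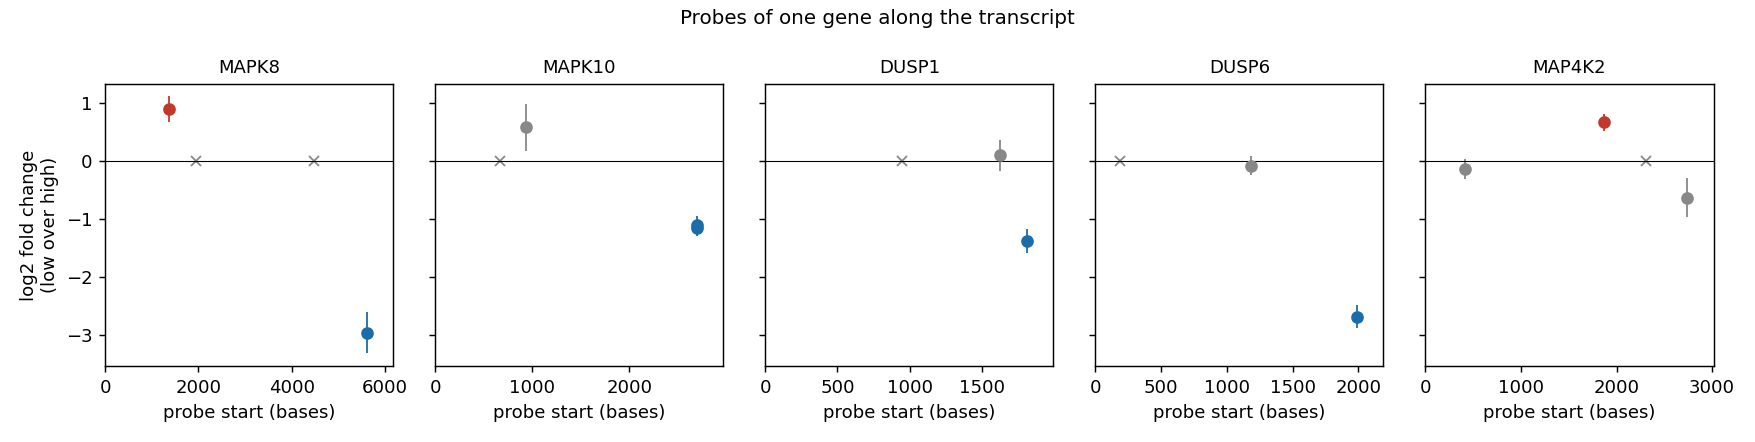
Log2 fold change (low-fertile over high-fertile, with SE) of each tested probe against the base at which it starts in its own transcript, for 5 of the genes whose tested probes differed by more than 1 log2 unit. Red and blue points passed an adjusted p of 0.05 (limma) as higher and lower, grey points did not, and crosses at 0 mark probes that did not enter the test. The last tested probe is called lower in 4 of the 5 genes, and in those 4 it entered the test only through the high-fertile pair, where it was bright.

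Among the phosphatases, DUSP6 and DUSP7, which act on ERK in the cytoplasm, were lower in the low-fertile pools. DUSP7 read 1496 and 1347 in the high-fertile pools against 425 and 397 in the low-fertile pools, 3.25-fold lower (log2 fold change -1.70, SE 0.15, limma, adjusted p = 0.00271). DUSP6 at base 1992 read 178 and 205 in the high-fertile pools against 34.7 and 22.4 in the low-fertile pools (-2.69, SE 0.20, limma, adjusted p = 0.00223). In both genes the groups were apart, and the DUSP7 call held with each pool left out (adjusted p at most 0.0194). On the array of low-fertile pool 2 the DUSP6 probe was not well above background, so its fold has no exact size and it entered the test through the high-fertile pair only.

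The DUSP6 probe at base 1184 did not share the fall. It read 27.1, 22.6, 22.5 and 21.4, with overlapping groups (-0.09, SE 0.17, limma, adjusted p = 0.719). Its signal in the high-fertile pools was not compared with that of the later probe, since the probes may bind with unlike strength. The only tested DUSP7 probe, at base 3031, begins with a run of alternating bases (chr22:49830654-49830710, plus strand), which is given here because such a run can occur at many places in a genome. How many other transcripts carry it was not tested.
DUSP7 at base 3031: ttccacacacacacacacacatatatatat

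DUSP1, the nuclear, stress-induced phosphatase of p38 and JNK, gave no call on its brightest probe. At base 1624 it read 36.0, 24.1, 37.2 and 23.8, so that pool 1 was above pool 2 in both groups and the groups overlapped (0.10, SE 0.27, limma, adjusted p = 0.806). At base 1816 it read 29.3 and 24.7 in the high-fertile pools against 12.1 and 7.84 in the low-fertile pools, where it was not well above background. By the rule used for MAPK8 the high-fertile pools were there 2.60-fold higher, which again is no lower bound (log2 fold change -1.38, limma, adjusted p = 0.00844). Here the low-fertile signals of the DUSP1 probe lay above the floor and themselves set the value. The probe entered the test through the high-fertile pair only.

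DUSP9, a cytoplasmic ERK phosphatase, was higher in the low-fertile pools. It read 31.2 and 22.0 in the high-fertile pools, in the second of them not well above background, and 56.0 and 55.5 in the low-fertile pools (1.18, SE 0.22, limma, adjusted p = 0.0147). It had entered the test only through the low-fertile pair, in which it was bright. The groups were apart, and the adjusted p was 0.0557 without high-fertile pool 2 and 0.0545 without low-fertile pool 2. DUSP26, an atypical member of the family, read 27.5, 33.0, 45.7 and 40.7, with both low-fertile pools above (0.60, SE 0.16, limma, adjusted p = 0.0414), and was not called with any pool left out. The other tested phosphatases besides DUSP19 (DUSP5, DUSP13, DUSP15, DUSP16, DUSP23 and DUSP27) had log2 fold changes of their brightest probe between -0.40 and 0.38 and were not called. DUSP27 is now named STYXL2 in RefSeq.

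The JNK-interacting proteins hold the kinases of the JNK relay together as scaffolds. MAPK8IP1 (JIP1) read 72.6 and 73.1 in the high-fertile pools against 109 and 106 in the low-fertile pools (log2 fold change 0.65, SE 0.15, limma, adjusted p = 0.0278). MAPK8IP2 (JIP2) read 44.5, 50.1, 77.2 and 60.5 in the same order of pools (0.62, SE 0.15, adjusted p = 0.0372 in limma). MAPK8IP3 (JIP3) read 28.4, 22.3, 31.7 and 30.1 and was not called (0.38, adjusted p = 0.169). All 3 had both low-fertile pools above both high-fertile pools, as had 35.0% of all genes tested. With spike-in scaling the calls of MAPK8IP1 and MAPK8IP2 were lost. With a pool left out MAPK8IP1 passed in 1 of 4 fits (adjusted p up to 0.117) and MAPK8IP2 in none.

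Across genes, 17 members had at least 2 tested probes, and in 6 of them these differed by more than 1 log2 unit. In 7 of the 17 the probes differed in sign, and the median range was 0.63. Probes called lower lay later in the transcript and held fewer G and C bases than the rest, but 8 of the 13 had entered the test only through the high-fertile pair. The 13 had a median start of 2700 bases into the transcript, against 1609.5 for the 44 not called and 1519 for the 9 called higher. Their median share of G and C bases was 41.7%, against 51.7% and 55.0%. Among probes well above background on all 4 arrays, the 5 called lower had a median start of 3019 bases and 45.0% GC, against 1519 bases and 55.0% for the 7 called higher. Over all tested probes the order of GC shares was the same, 41.7% for lower, 45.0% for not called and 55.0% for higher, while the starts lay closer together, at medians of 1104, 849 and 726 bases.

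As a description over the 66 member probes, which share arrays and in part a transcript, the log2 fold change correlated with GC share at r = 0.42 (rho = 0.36) and with the start at r = -0.42 (rho = -0.35). Over all 21033 probes the values were r = 0.44 (rho = 0.48) for GC share and r = -0.09 (rho = -0.11) for the start. Among the 40 member probes well above background on all 4 arrays they were r = 0.43 (rho = 0.27) and r = -0.36 (rho = -0.34). The labels state that the RNA was reverse transcribed from an oligo-dT primer, that is, from the 3′ end. The part of GC share and position in the calls of single members was not tested.

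**Figure D5:**
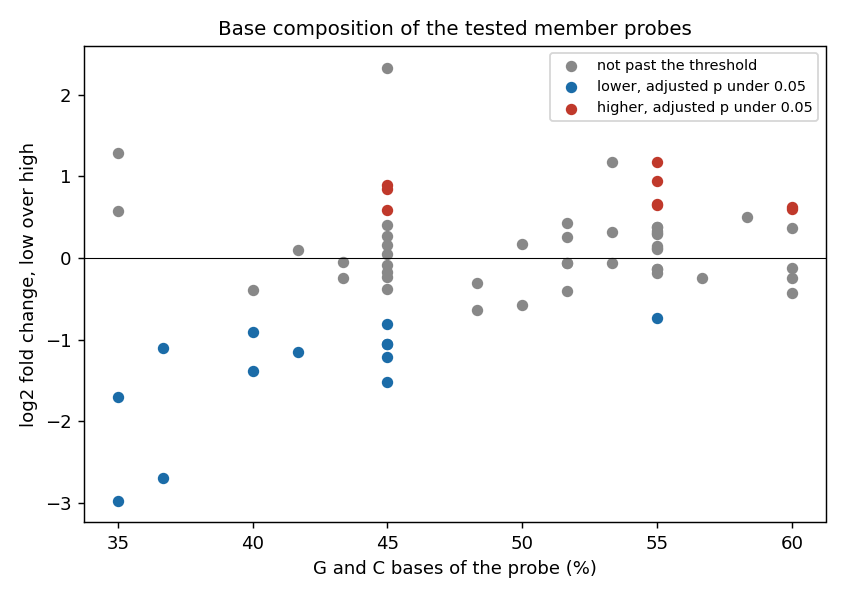
Log2 fold change (low-fertile over high-fertile) of the 66 tested member probes against the share of G and C bases in the probe, coloured by call (limma, adjusted p below 0.05). Probes called higher lie at 45% or more, and 12 of the 13 called lower lie at 45% or less.

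Genes that act with the members but lay outside their naming were read in the same way, with 9.60% higher and 16.3% lower over all genes tested as the background of their counts. In the RAS branch upstream of ERK 9 of 11 genes on the array were tested, 1 was higher and 1 lower. KSR2, a scaffold of the ERK relay, read 90.8 and 93.1 in the high-fertile pools against 160 and 146 in the low-fertile pools (0.82, SE 0.14, limma, adjusted p = 0.0120), whereas SOS2, which loads RAS with GTP, was lower (-1.16, adjusted p = 0.0388). SOS2 read 21.8 and 32.7 against 15.0 and 8.44, was not well above background in low-fertile pool 2 and entered the test through the high-fertile pair only. Of 6 tested further kinases of the cascade only NLK, a MAPK-like kinase, was called. It read 166 and 155 in the high-fertile pools against 37.3 and 34.3 in the low-fertile pools (-2.08, SE 0.14, limma, adjusted p = 0.00221). Of 5 tested adaptors and scaffolds only MAPKAP1, a subunit of the mTORC2 complex, was called (-0.79, adjusted p = 0.0192), and it too was admitted through the high-fertile pair alone and not well above background in low-fertile pool 2.

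Of 12 tested substrates and targets of the cascade, 2 were higher and 3 lower, with a median log2 fold change of -0.06. JUN, the transcription factor named for JNK, was higher (0.72, adjusted p = 0.0432), as was RPS6KA1 (RSK1), a kinase activated by ERK (0.55, adjusted p = 0.0447). Lower were MEF2C (-1.86, adjusted p = 0.00223), a transcription factor phosphorylated by p38 and ERK5, STMN1 (-1.76, adjusted p = 0.00236), a tubulin-binding protein, and ATF4 (-1.15, adjusted p = 0.00732), a stress transcription factor, all in limma. MEF2C read 84.0 and 85.9 in the high-fertile pools against 24.0 and 20.3 in the low-fertile pools, with the groups apart. It entered the test only through the high-fertile pair, where it was bright, and was well above background in 1 of the 2 low-fertile pools, so its fold has no exact size.

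The labelled cell type was checked against marker genes. Of 16 sperm markers 8, 6, 11 and 4 were well above background in high-fertile pools 1 and 2 and low-fertile pools 1 and 2. PRM1, TNP1 and ODF1 were detected in all pools, whereas AKAP4, LDHC and SMCP were not well above background in any. Of 10 leukocyte markers 9, 9, 9 and 7 were well above background. Of 9 tested leukocyte markers 1 was called, PTPRC (CD45), which was higher in the low-fertile pools (0.78, adjusted p = 0.0160 in limma), and the median log2 fold change of the list was 0.10. Those of ITGB2 (-0.09) and S100A12 (-0.15) lay below 0. Summed over the list, the normalized signal was, as log2, 9.20 and 9.12 for the high-fertile against 9.60 and 9.75 for the low-fertile pools, but that sum is mostly PTPRC and LYZ, which read 6981 and 13580 in high-fertile pool 1 against 473 for the next brightest marker, CD79A. Of 2 tested red cell markers HBB was higher, admitted to the test through the low-fertile pair only, whereas HBA (-0.17) was not called. Of 5 tested markers of testicular somatic cells STAR was higher. INHA (-0.52), ACTA2 (-0.25), AMH (0.09) and CYP17A1 (0.26) were not called. Of 6 tested sperm markers PRM1 was higher (0.67, limma, adjusted p = 0.0232), while TNP1, ODF1 and GAPDHS lay below 0 and ODF2 and CATSPER1 above, uncalled. Over all genes tested 9.60% were called higher and 16.3% lower. None of 4 tested epithelial markers was called. The part of other cells in the values of the MAPK genes was not tested, and in pooled RNA fewer cells of a type and less RNA per cell cannot be told apart.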

How the data were processed

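The authors extracted the array images with Feature Extraction 11.5.1.1 and deposited, per array, linear background-subtracted processed signal intensity, and a table of log2 values shifted by the 75th percentile in GeneSpring. Gene names and Btau_3.1 positions are those of the scanner files.

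From the intensities, outlier spots were dropped, the remaining spots were averaged per probe on the log2 scale, and each array was shifted by the 75th percentile of its sample probes. A mark of the scanner software was given to probes with a share of 0.5 or more of marked spots. The test was limma 3.58.1 (R 4.3.3) over 21033 probes with Benjamini-Hochberg adjustment, and was checked on simulated data. Tables were made with Python 3.11.15, pandas 2.3.3 and numpy 2.4.6. The number of arrays limits the precision, and with 2 pools per group the smallest two-sided p of an exact permutation test is 0.333. Of 155 member probes, 124 matched RefSeq (ARS-UCD2.0) by accession.

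The members and gene lists were chosen with earlier results of these data known. Genes named in full were those of the study's pathway tables that belong to the family, the core of the ERK, JNK and p38 branches, the up to 3 largest calls per tier and direction, and genes with probes called both ways. Other members, DUSP19 among them, were named after their values were seen. The alternatives were 16 other settings. Same-numbered pools did not deviate together (r = 0.0055 over 21024 probes), so the pool number pairs nothing. Some genes on the array are not reported here by name, though counts include them.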

Additional observations from a re-analysis of the deposited data

Results flagged for a closer look

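On the array of low-fertile pool 2, signal appeared outside the measured members, in the spots next to 2 of them. Of the 6 spots nearest to the MAP2K6 probe at base 1256, 2 were more than 2 log2 units above the same spots on the other arrays, and of the 6 nearest to DUSP19 this held for 4. The MAP2K6 and DUSP19 spots themselves were 3.54 and 7.34 above their mean on the other arrays. On the other 3 arrays 0 of 6 neighbours were raised at both places, also when those arrays were set only against each other. Over all spots, 0.472%, 0.329%, 0.680% and 0.694% lay on such patches in high-fertile pools 1 and 2 and low-fertile pools 1 and 2.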

How the results depend on the processing

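DUSP7 lost its call in 2 of the 16 settings, with no filter on dim probes and under the methods' t-test after adjustment. DUSP6 lost it in the same 2 of the 15 that gave it a value, and has none where every array must show a probe well above background. Those 2 settings left 0 of the 7 higher and 0 of the 7 lower genes past an adjusted p of 0.05. At an unadjusted p below 0.05 they gave 5 higher and 7 lower without the filter, and 7 and 6 by the t-test. Spike-in scaling gave 1 higher and 16 lower, and normexp gave 11 lower. Leaving out 1 pool gave 1 to 5 higher and 3 to 7 lower, with a lone pool assumed to vary like the others. With the pool number as a replicate block 5 genes were higher and 7 lower, 11 of them shared with the 14 above, and MAP2K6 passed at the same log2 fold change of 2.33 (adjusted p = 0.022).

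The median log2 fold change of the MAP4K tier was -0.17 with normexp, -0.18 with quantile normalization, -0.61 with spike-in scaling, -0.36 over probes that every array showed well above background, and -0.30 to -0.21 with a pool left out. The MAP3K median was -0.24 to 0.0061 with a pool left out. With spike-in scaling that of MAP3K was -0.50, of MAP2K -0.049, of MAPK -0.20 and of DUSP -0.24. The MAP2K median was 0.089 with normexp, 0.14 over probes that every array showed well above background, and 0.24 to 0.40 with a pool left out. The MAPK median was -0.42 when a gene was read as the median of its tested probes and -0.23 to 0.34 with a pool left out. The DUSP median was -0.0081 over probes that every array showed well above background and 0.028 to 0.37 with a pool left out. MAP2K6 ranged from 0.84 to 3.82 with a pool left out.

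The brightest probes of some members not named in full turned direction too. Among these were MAP3K6 in 3 settings, MAP3K14 and DUSP5 in 2, and MAPK12, MAPK13 and MAPKAPK2 in 1. Among the genes named in full and DUSP19, directions turned as follows. Read as the median of its tested probes, MAPK8 was -1.04, MAPK10 -0.97 and DUSP1 -0.64. With spike-in scaling DUSP1 was -0.27 and MAP2K3 -0.049. With a pool left out MAPK10 ranged from -0.065 to 1.21, and DUSP1 from -0.20 to 0.40. DUSP19 ranged from -3.57 to 6.15, where -3.57 has no exact size because low-fertile pool 1 did not show it well above background. With bright patches left out DUSP19 was also -3.57. Apart from the settings' own construction (fewer probes tested, 1 pool fewer), the cause was not tested. Weak signal kept 89 of the 155 member probes out of the test, beside 30249 of 51282 sample probes.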
